A study of Mus musculus with 5 samples.

Results

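A set of 10 genes of the unfolded protein response and the integrated stress response was followed in the mouse hippocampus after kainic acid seizures: Hspa5, Sdf2l1, Herpud1, Xbp1, Atf4, Ddit3, Trib3, Chac1, Sesn2 and Asns. They were chosen by symbol, and all 10 were found among the 55385 genes listed. Total RNA was sequenced from whole hippocampus of male C57/bl6 mice aged 3 months. Kainic acid, an agonist of kainate-type glutamate receptors that provokes generalized seizures, was injected intraperitoneally at 20 mg/kg, and tissue was taken at 1, 4 or 8 h, counted from the onset of seizures. There were 5 libraries: 1 of untreated control, 1 at 1 h, 2 at 4 h and 1 at 8 h. No injected control was used here, so the injection and the drug cannot be told apart. The libraries held between 16612225 and 19109204 reads assigned to genes.

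The unfolded protein response is the reaction of a cell to misfolded proteins in the endoplasmic reticulum. Its sensors, encoded by Ern1, Eif2ak3 and Atf6, raise the output of chaperones and of the degradation machinery and slow protein synthesis. The integrated stress response is the arm that starts from phosphorylation of the initiation factor eIF2 alpha, by Eif2ak3 or by kinases that sense lack of amino acids, haem or the presence of double-stranded RNA. Most translation then slows, while translation of Atf4 mRNA increases, and the ATF4 protein activates genes of amino acid supply, redox balance and cell death. In neurons the same kinases and phosphatases also set the rate of protein synthesis that long-lasting synaptic changes need.

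The libraries were first compared by genes outside the set. Transcripts of the activity-regulated transcription factor Fos were at 10.8 CPM in the control, 999 at 1 h, 519 and 70.4 in libraries 1 and 2 at 4 h, and 17.2 at 8 h. CPM are read counts scaled to library size with trimmed-mean factors. Npas4 followed with 3.92, 694, 130.0, 4.92 and 5.13 CPM, and Atf3, which responds both to activity and to stress, with 0.653, 110.3, 142, 54.4 and 4.45 CPM. These genes, chosen after their values were seen, were far above control at 1 h, and at 4 h library 1 exceeded library 2 for each of them. The pair at 4 h thus differed in these early-response genes.

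Markers of the choroid plexus, the epithelium of the ventricles that adjoins the hippocampus, also set libraries apart. The 5 markers summed to 3995 CPM in the control, 1693 at 1 h, 29.2 and 4267 in libraries 1 and 2 at 4 h, and 3091 at 8 h. Their most abundant gene, Ttr, stood at 3747, 1573, 16.3, 3971 and 2884 CPM. All 5 were below control at 1 h, in library 1 at 4 h and at 8 h, and 1 of 5 was below it in library 2; none was at 0 in any library. The summed neuronal markers varied far less, at 3869, 4069, 4122, 3737 and 3437 CPM over 6 genes led by Snap25. Single neuronal markers went opposite ways at 4 h, with Gad1 at 2.01 and 1.48 times control and Gad2 at 1.47 and 1.52 times, against 0.688 and 0.692 times for Rbfox3 and 0.791 and 0.903 times for Slc17a7. Sums of the other 8 lists lay between 0.541 times control (CA1, 2 genes) and 1.74 times (blood cells, 4 genes), both in library 1 at 4 h. All 5 microglia markers were below control in both 4 h libraries, with sums at 0.808 and 0.848 times. All 4 oligodendrocyte markers were above it in both, with sums at 1.15 and 1.47 times. Within the dentate gyrus list, whose sums at 4 h were 1.05 and 0.825 times control, Prox1 was at 2.86 and 1.99 times, C1ql2 at 0.376 and 0.398 times and Dsp at 0.060 and 0.188 times. In bulk tissue, fewer cells of a type and less RNA per cell cannot be told apart. The part of tissue composition in the values below was not tested. Levels and ratios at 4 h are given for each library, and 2-fold counts and medians also with a library left out, which leaves no spread for a test. The libraries also differed in the share of reads assigned to no feature, which was 24.7% in the control, 29.0% at 1 h, 33.1% and 25.3% in libraries 1 and 2 at 4 h, and 30.9% at 8 h.

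**Figure D1:**
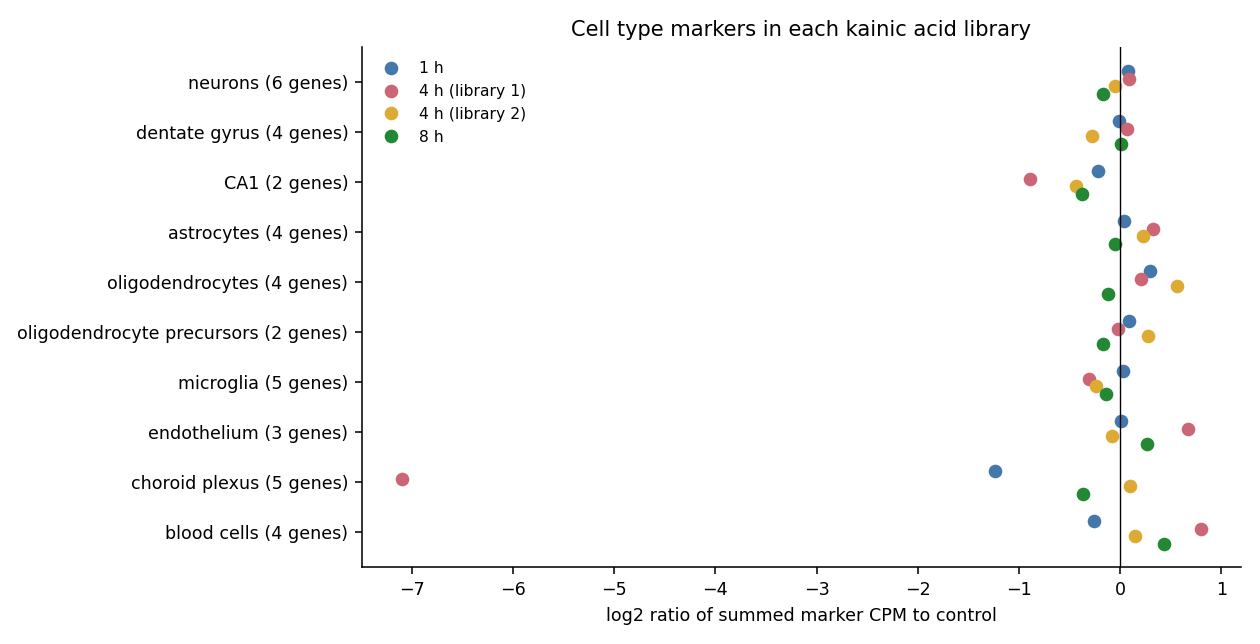
Summed CPM of each list of cell type markers in the 4 kainic acid libraries, as the log2 ratio to the control library; vertical offsets within a row only separate the points. Choroid plexus markers were at a ratio of 0.0073 in library 1 at 4 h and 0.424 at 1 h, while the neuronal sum lay between 0.888 and 1.07 of control.

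Promoter windows were searched for the elements through which these pathways are known to act. The endoplasmic reticulum stress response element (ERSE, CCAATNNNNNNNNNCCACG) and its variant ERSE-II (ATTGGNCCACG) are bound by ATF6 and XBP1 with the factor NF-Y, and the core of the C/EBP-ATF response element (TGATGNAA) by ATF4 with C/EBP proteins. RefSeq windows of 300 bases on GRCm38.p6, from 250 before to 50 after the start, were found for all 10 members, and both strands were read. ERSE was found in 1 member and in 0.119% of 32851 windows, ERSE-II in 1 member and 0.0365%, and the C/EBP-ATF core in 4 members and 3.97%. ERSE and ERSE-II share their CCACG part. A match describes letters in the window and not a bound site, and no conclusion on a factor follows from its absence. The stretches around 4 of the matches are shown because they cover the 3 elements in genes of both pathways, with the matched letters in capitals, 5′ to 3′ on the strand of the match:
Hspa5, ERSE, chr2:34772020-34772048, plus strand, 65 to 47 bases before the RefSeq start: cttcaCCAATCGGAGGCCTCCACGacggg
Herpud1, ERSE-II, chr8:94386368-94386396, plus strand, 52 to 42 bases before the start: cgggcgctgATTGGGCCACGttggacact
Chac1, C/EBP-ATF core, chr2:119351038-119351067, minus strand, 193 to 186 bases before the start: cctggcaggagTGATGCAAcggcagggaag
Asns, C/EBP-ATF core, chr6:7693214-7693243, minus strand, 23 to 16 bases before the start: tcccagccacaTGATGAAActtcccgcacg

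In the GENCODE M21 annotation, the Hspa5 and Asns matches lie within an exon of a transcript that starts further upstream, and the Herpud1 and Chac1 matches lie upstream of all annotated exons of the gene. Herpud1 held a second match, to the C/EBP-ATF core on the opposite strand at 112 to 105 bases before the start. Trib3 held a match to that core 15 to 22 bases after its RefSeq start. In GENCODE M21 this Trib3 match, at chr2:152344039-152344046, lies upstream of the gene, whose start on the minus strand is at 152344032. Sdf2l1, Xbp1, Atf4, Ddit3 and Sesn2 held none of the 3.

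**Figure D2:**
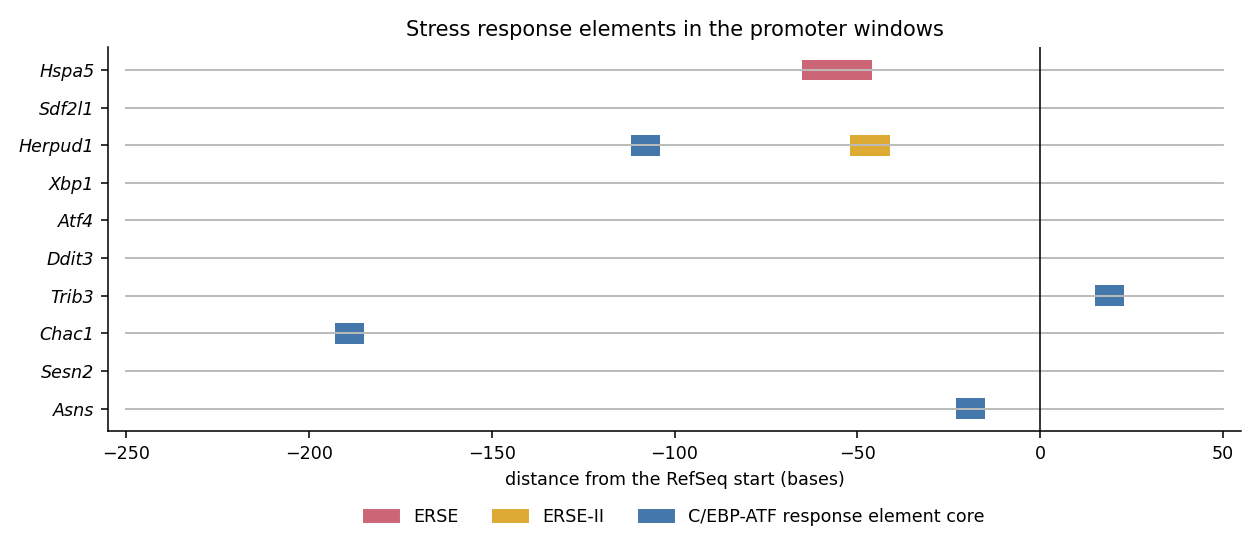
Position of each match in the promoter windows of the 10 genes, in bases from the RefSeq start; grey lines span the 300 bases searched and coloured blocks mark the matched stretch. Of the 10 windows 5 held a match, and that of Herpud1 held both ERSE-II and the C/EBP-ATF core.

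A first group of 3 genes acts in the endoplasmic reticulum itself. Hspa5 (ENSMUSG00000026864.13, chr2:34771970-34777547, all member positions from GENCODE M21 on GRCm38) encodes BiP, its main HSP70 chaperone. From 351 CPM in the control its level went to 663 at 1 h, to 557 in library 1 and 310.3 in library 2 at 4 h, and to 445 at 8 h. The 1 h library was highest, at 1.89 times control, with a 95% counting interval of 1.84 to 1.95. The libraries at 4 h fell on opposite sides of the control, at 1.59 and 0.885 times its level, and differed from each other 1.79-fold. Counting intervals cover the sampling of reads alone, not differences between animals, and 3 of the 4 groups have no replicate.

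The other members of this group are a cofactor of BiP and a degradation factor. Sdf2l1 (ENSMUSG00000022769.9, chr16:17130138-17132383) encodes a partner of BiP in the folding of client proteins. Levels of 10.6 CPM in the control and 10.9 at 1 h compared with 19.3 and 13.2 in the 4 h libraries and 11.4 at 8 h. The interval excluded 1 only in the 4 h libraries, at 1.83 times control (1.53 to 2.19) and 1.25 times (1.04 to 1.51). Herpud1 (ENSMUSG00000031770.16, chr8:94386438-94395377) encodes a membrane protein that helps to assemble the degradation complex for misfolded proteins. The control held 57.4 CPM and the 1 h library 77.6, followed by 64.6 and 52.0 in the pair at 4 h and 51.3 at 8 h. Its level was 1.35 times control at 1 h, 1.12 and 0.905 times in libraries 1 and 2 at 4 h, and 0.894 times at 8 h. All 4 counting intervals excluded 1, and those of the 4 h libraries lay on opposite sides of it, at 1.03 to 1.22 and 0.830 to 0.987.

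**Figure D3:**
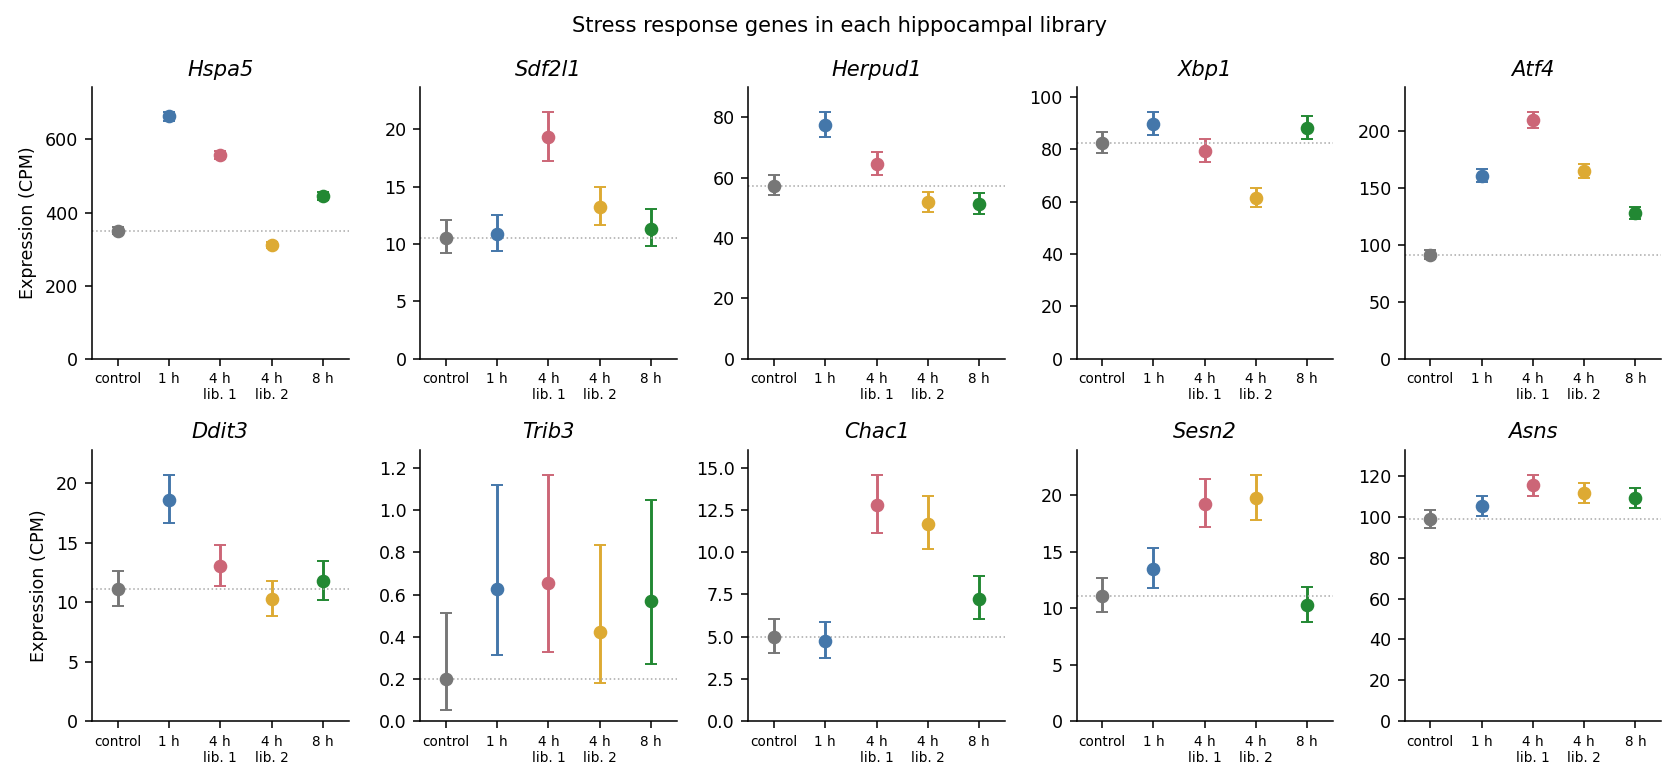
Expression of the 10 genes in each library in CPM, with exact Poisson 95% counting intervals; the dotted line marks the control, and each panel starts at 0. Chac1 and Sesn2 were high in both 4 h libraries, whereas Hspa5 was high at 1 h (663 CPM) and on either side of the control at 4 h (557 and 310.3 CPM).

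Another 3 members are transcription factors. Xbp1 (ENSMUSG00000020484.19, chr11:5520659-5525893) is spliced by the sensor that Ern1 encodes, which turns it into an active factor, and counts per gene do not separate its spliced and unspliced forms. Total Xbp1 was at 82.5 CPM in untreated tissue, 89.7 at 1 h, 79.3 and 61.3 in libraries 1 and 2 at 4 h, and 88.2 at 8 h. It was the only member below control in both 4 h libraries, at 0.962 and 0.744 times its level. The first of these ratios had an interval that included 1, from 0.894 to 1.03.

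Atf4 (ENSMUSG00000042406.8, chr15:80255184-80257541), the central factor of the integrated stress response, was higher than control at each time. The control held 91.3 CPM, the 1 h library 160.5, libraries 1 and 2 at 4 h 209 and 164, and the 8 h library 127. Ratios to control were 1.76, 2.29, 1.80 and 1.39 in that order. None of the 4 counting intervals included 1. The fitted log2 fold change was 0.81 ± 0.24 (SE) for 1 h, 1.03 ± 0.21 for 4 h and 0.48 ± 0.24 for 8 h. The 4 h libraries differed by 0.35 on the log2 scale, less than their mean distance of 1.02 from the control.

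Ddit3 (ENSMUSG00000025408.15, chr10:127290774-127296288) encodes CHOP, a factor that ATF4 activates and that favours cell death under lasting stress. Its level of 11.1 CPM in the control compared with 18.6 at 1 h, 13.0 and 10.3 in the 4 h pair, and 11.8 at 8 h. The 1 h library alone stood apart, at 1.68 times control with an interval of 1.41 to 1.996, and the intervals of the other 3 ratios included 1. The annotation holds a second entry of the same name inside this gene, with 105 bases of exon that it shares on the same strand and 0 counts in all 5 libraries. A further 81 exonic bases (4.73%) lie opposite exons of Mars and Gm4189, and whether counting used the strand is not given in the sources used here. Ddit3 values are uncertain to that extent.

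The remaining 4 members lie downstream of ATF4. Chac1 (ENSMUSG00000027313.3, chr2:119351229-119354381) encodes an enzyme that breaks down glutathione. It had 99 counts in the control and 83 at 1 h, then 215 and 221 in the pair at 4 h, and 127 at 8 h, which correspond to 4.97, 4.72, 12.8, 11.7 and 7.24 CPM. The interval of the 1 h ratio, 0.701 to 1.28, included 1, and both 4 h libraries were well above, at 2.57 times (interval 2.01 to 3.29) and 2.35 times (interval 1.85 to 3.01). By 8 h it was at 1.46 times control (interval 1.11 to 1.91). The 4 h libraries differed 1.09-fold in Chac1, and the part of tissue composition in its levels was not tested.

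Sesn2 (ENSMUSG00000028893.8, chr4:132492032-132510501) encodes sestrin 2, a leucine sensor that restrains the growth kinase complex mTORC1. Untreated tissue held 11.1 CPM and the 1 h library 13.5, whereas the 4 h libraries reached 19.2 and 19.7 before 10.3 at 8 h. Both 4 h libraries were above all others, at 1.73 and 1.78 times control, and the 8 h ratio of 0.925 had an interval that included 1. Asns (ENSMUSG00000029752.12, chr6:7675169-7693254), asparagine synthetase, is a classical target of ATF4 in amino acid shortage. It varied least of the set, from 98.9 CPM in the control through 105, 115, 112 and 109 CPM in the 4 kainic acid libraries in order of time, a range of 1.17-fold. Trib3 (ENSMUSG00000032715.9, chr2:152337422-152344032) encodes a pseudokinase that binds ATF4 and AKT. It was barely detected, with 4 counts in the control and 11, 11, 8 and 10 in the kainic acid libraries. Its ratios of 3.11, 3.25, 2.11 and 2.84 exceeded 2 throughout, yet every interval included 1, so no difference was detectable at this depth. The 4 members with a C/EBP-ATF core in their window were at 2.57 and 2.35 times control (Chac1), 3.25 and 2.11 times (Trib3), 1.17 and 1.13 times (Asns) and 1.12 and 0.905 times (Herpud1) in the 4 h libraries. The other 6 ranged from 0.744 times (Xbp1) to 2.29 times (Atf4), and a relation between the element and the levels was not tested.

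**Figure D4:**
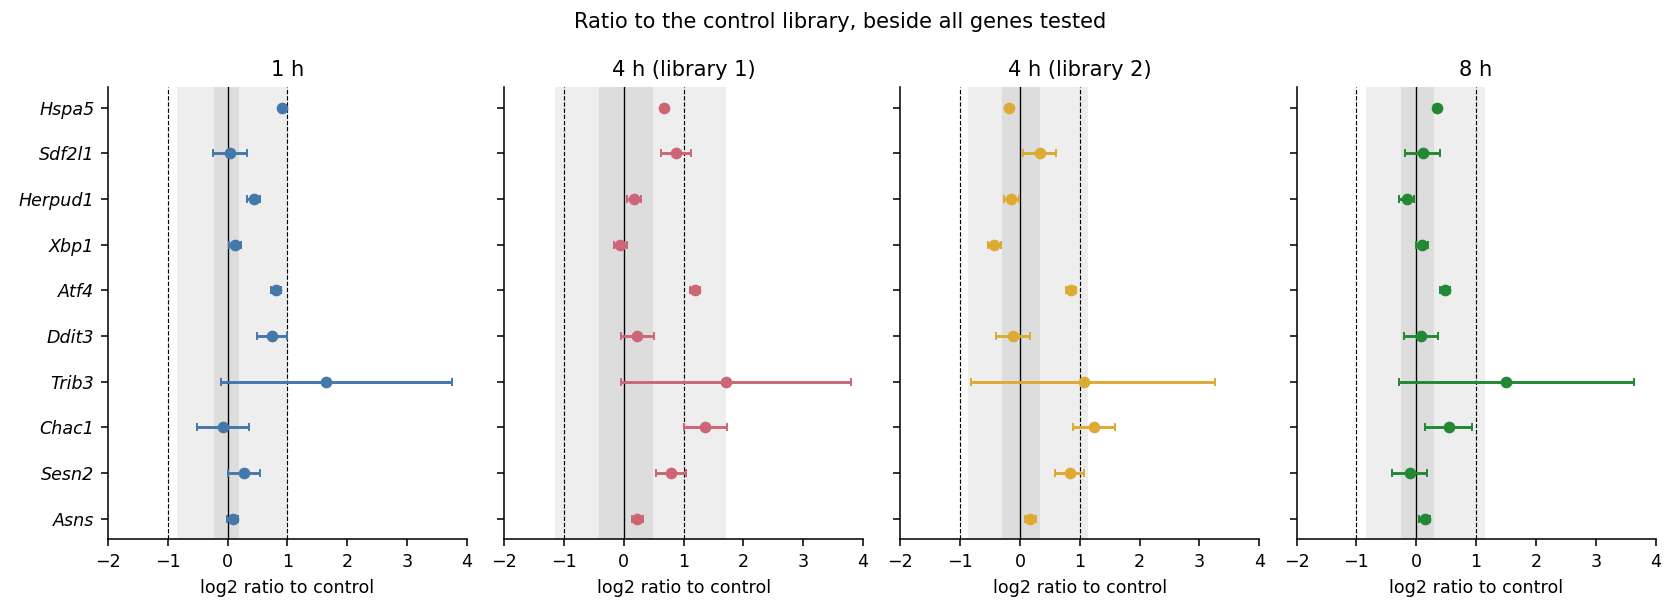
Log2 ratio of each gene to the control library, with exact 95% counting intervals, in the 4 kainic acid libraries; shading spans the middle 50% (dark) and 90% (light) of the 19768 genes tested, and dashed lines mark 2-fold. Chac1 lay beyond 2-fold in both 4 h libraries, and the wide bars of Trib3 rest on 4 to 11 counts per library.

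At least a 2-fold distance from control, in both libraries at 4 h, was used to describe the set beside all 19768 genes that passed the filter on low counts, which all 10 members did. Trib3 met the minimum of that filter in kainic acid libraries alone, as did 1881 of all genes, so its place in these counts supports nothing. At 1 h 1 member was that far above control, namely Trib3, as were 4.95% of all genes, and 0 members were that far below, against 3.39%. At 4 h 2 members were above, Chac1 and Trib3, against 4.54% of all genes, and 0 were below, against 1.48%. This count at 4 h was 2 without library 1, against 6.24% of all genes, and 3 without library 2, where Atf4 was added, against 11.7%. It was 1 with scaling by library size alone, which put the median of all genes at -0.11 on the log2 scale. No share of all genes is given under that scaling, so this count has nothing to stand beside. At 8 h 1 member was above, again Trib3, against 6.46%, and 0 were below, against 3.18%. Among the 9 members that met the minimum in the control too, 0 were 2-fold above control at 1 h, 1 at 4 h (Chac1) and 0 at 8 h. The shares of the 17887 such genes were 2.67%, 2.72% and 3.09%. At 4 h these were 2 members in library 1 alone (Atf4 and Chac1), against 8.18%, and 1 in library 2 alone (Chac1), against 3.55%, in a comparison added after the data were seen. In both 4 h libraries 6 of the 10 members were above control and 1 was below it, while 38.3% of all genes were above and 38.3% below. In library 1 alone 9 were above and 1 below, and in library 2 alone 6 were above and 4 below, while 49.7% and 50.4% of all genes were above. Fitted log2 fold changes of the set had medians of 0.36, 0.46 and 0.12 at 1, 4 and 8 h, beside -0.0050, 0.0098 and 0.0091 over all genes. The median at 4 h was 0.25 without library 1 and 0.72 without library 2, beside 0.0032 and -0.0072 over all genes. Without Trib3 the medians were 0.28, 0.31 and 0.10 at 1, 4 and 8 h, and at 4 h 0.17 without library 1 and 0.67 without library 2.

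The test asked which genes differed from control beyond the spread between libraries, a spread known only from the pair at 4 h. The p-values therefore measure only the spread between these libraries, which may be technical, and the single libraries are assumed to vary like that pair. In the edgeR quasi-likelihood test, with p adjusted over all genes by the Benjamini-Hochberg method, 0 of the 10 members passed 0.05 at 1 h, 4 h, 8 h or over the 3 times together. Few genes of any kind passed: 0 of 19768 at 1 h (0%), 1 at 4 h (0.00506%), 0 at 8 h (0%) and 2 over the 3 times (0.0101%). These were ETV3L at 4 h, and ETV3L and Cenpa over the 3 times, named after their values were seen. At an unadjusted p under 0.05, the edgeR test counted 1 member at 1 h (Atf4, against 2.42% of all genes), 3 at 4 h (Atf4, Chac1 and Sesn2, against 11.6%) and 0 at 8 h (against 4.51%). Over the 3 times together it counted Atf4, Chac1 and Sesn2, against 8.33%.

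Atf4 and Chac1 came nearest to the threshold. In the edgeR fit, the adjusted p of Atf4 at 4 h was 0.273, with 2 of 2 libraries above control. The range over 5 alternative fits by edgeR, DESeq2 and limma-voom was 7.22e-05 to 0.332, and only the edgeR fit without the filter on low counts, added after the data were seen, was under 0.05. For Chac1 at 4 h, with a fitted log2 fold change of 1.28 ± 0.32 (SE), the edgeR adjusted p was 0.316 and the range was 0.0319 to 0.439, again with that single fit under 0.05. Sesn2 at 4 h had a log2 fold change of 0.80 ± 0.26, an edgeR adjusted p of 0.363 and a range of 0.212 to 0.777. At 1 h Hspa5 had a fold change of 0.92 ± 0.41 on the log2 scale and an edgeR adjusted p of 1, with a range of 0.00386 to 1, whose lowest value came from the same fit. That fit also gave Atf4 at 1 h an edgeR adjusted p of 0.0472, in a range up to 1. DESeq2 called 0 members at each time, against 0.308%, 1.63% and 0.189% of all genes with an adjusted value at 1, 4 and 8 h, and limma-voom also called 0.

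Leaving out 1 library at 4 h turned the direction for some members. Without library 1, the log2 fold change at 4 h went from 0.31 to -0.18 for Hspa5, from 0.07 to -0.11 for Ddit3 and from 0.02 to -0.14 for Herpud1. These were the members whose pair lay on opposite sides of the control. For Chac1, Sesn2, Atf4, Sdf2l1 and Asns both libraries lay above it, and the mean distance from control exceeded the difference between the pair. The same held for Trib3, but on 4 counts in the control and 11 and 8 at 4 h. Both of its intervals at 4 h included 1, so its place here supports nothing. No share of all genes that met this comparison is given, and the spread of the single control library does not enter it. None of these members passed the edgeR test at 4 h, where the adjusted p was 0.667 for Asns and 0.526 for Sdf2l1. Library size alone, in place of trimmed-mean scaling, moved the median of all genes from 0.0098 to -0.11 on the log2 scale at 4 h and from -0.0050 to -0.077 at 1 h. Ddit3 and Herpud1 at 4 h and Sdf2l1 at 1 h then came to -0.063, -0.11 and -0.030. Relative to that median they lay at 0.048, 0.0021 and 0.046, against 0.056, 0.011 and 0.047 with trimmed-mean scaling, so their change of sign went with the shift of all genes.

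Levels between genes were compared per kilobase of exon. In the control, Hspa5 was highest at 82.9 CPM per kb, followed by Atf4 (38.7), Asns (36.2), Xbp1 (25.4), Herpud1 (24.6), Sdf2l1 (9.52), Ddit3 (6.48), Sesn2 (3.20), Chac1 (3.04) and Trib3 (0.0946). Counting intervals overlapped between Atf4 and Asns, between Xbp1 and Herpud1, and between Sesn2 and Chac1. The first 3 places were the same in all 5 libraries. In library 2 at 4 h, however, Hspa5 (73.4 CPM per kb) and Atf4 (69.8) had overlapping intervals. Chac1 was in place 9 in the control and in place 7 in both 4 h libraries, at 7.80 and 7.14 CPM per kb, but there its interval overlapped that of Ddit3 in place 8, at 7.59 and 5.99.

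Among 14317 genes outside the set with at least 50 counts in 1 library, those nearest to each member over the 4 log2 ratios were sought for Atf4, Chac1 and Trib3, the members with a ratio of at least 2 in any library. Nearest to Chac1 were Ppp4r4 (distance 0.11 on the log2 scale), Nifk (0.15) and Ppp4r2 (0.19), and 54 genes lay within 0.5. Ppp4r4 was at 1.01, 2.68, 2.33 and 1.47 times control in the order 1 h, 4 h libraries 1 and 2, and 8 h. Nearest to Atf4 were Gm44708 (distance 0.11), Stat3 (0.21) and Gm45716 (0.24), with 77 genes within 0.5. Stat3, a transcription factor of cytokine signalling, was at 1.54, 2.25, 1.79 and 1.47 times control. For Trib3 the nearest were Gm37608 (0.28), Ptges (0.45) and Gm39041 (0.46), but its own ratios rest on few counts.

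The set was then placed among 105 other genes of the 2 pathways in 9 lists, of which 104 passed the filter. In the edgeR quasi-likelihood test 0 of them passed a Benjamini-Hochberg adjusted 0.05 at 1, 4 or 8 h. At an unadjusted p under 0.05 there were 4 (3.85%), 18 (17.3%) and 5 (4.81%), against 2.42%, 11.6% and 4.51% of all genes, and DESeq2 called 1, 1 and 0, against 0.308%, 1.63% and 0.189%. At least 2-fold above control were 5 of the 104 at 1 h, 2 at 4 h and 2 at 8 h, and 1, 2 and 0 were that far below. The shares over all genes were 4.95%, 4.54% and 6.46% above and 3.39%, 1.48% and 3.18% below. In library 2 alone, 3 were above and 2 below at 4 h, against 6.24% and 3.5% of all genes, and in library 1 alone 4 were above and 2 below, against 11.7% and 6.53%. Both genes above at 8 h, Fgf21 and Tnfrsf10b, met the filter's minimum in kainic acid libraries alone, and 0 of the other 102 were 2-fold above then, against 3.09% of such genes. At 4 h the medians of 7 lists lay above 0 on the log2 scale, and those of the folding enzymes and the degradation genes below, also with either library left out. The medians and list counts with a library left out, and the medians under other scalings, were added after the data were seen. With library size alone the median of the tRNA synthetases came to -0.025, which was 0.085 above the median of all genes. Those of the transcription regulators, amino acid targets and translocon genes came to 0.16, 0.14 and 0.17. The folding enzymes, degradation genes and other stress-induced targets came to -0.22, -0.28 and 0.11. The median of all genes was -0.11 under this scaling.

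Among the 7 sensors and eIF2 alpha kinases the median log2 fold change at 4 h was 0.45, with 0.19 without library 1 and 0.61 without library 2. None was 2-fold from control at any time, and 3 had an unadjusted p under 0.05 at 4 h, against the 11.6% of all genes. Atf6, the membrane-bound sensor, was at 110.3 CPM in the control, 1.14 times that level at 1 h, and at 175, 177 and 181 CPM in the pair at 4 h and at 8 h. Eif2ak4, the kinase that senses uncharged tRNA, was at 1.53 and 1.46 times control at 4 h, Atf6b at 0.685 and 0.716 times. Eif2ak3 and Ern1 were higher in library 1 (1.58 and 1.66 times) than in library 2 (1.14 and 1.08 times).

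The phosphatase subunits that reverse eIF2 alpha phosphorylation were listed with the subunits of eIF2B, the exchange factor that this phosphorylation inhibits. Ppp1r15a, the inducible subunit GADD34, had 9.90 CPM in the control and 73.7 at 1 h, then 29.8 and 13.7 in libraries 1 and 2 at 4 h, and 11.0 at 8 h. At 1 h it was 7.45 times control, with an interval of 6.41 to 8.70. The adjusted p there was 1 by edgeR and 2.28e-04 by DESeq2. Ppp1r15b, the constitutive subunit, was at 2.09 times control at 1 h, and at 2.32 and 1.43 times at 4 h. Eif2b3 was at 1.40 and 1.64 times control at 4 h and Eif2b2 at 1.45 and 1.22 times. Over the 7 genes of this list, 2 were at least 2-fold above control at 1 h and 0 at the later times. The shares over all genes were 4.95%, 4.54% and 6.46% at 1, 4 and 8 h. In library 1 alone Ppp1r15a (3.01 times) and Ppp1r15b were that far above at 4 h, beside 11.7% of all genes. The median at 4 h was 0.42, with 0.29 without library 1 and 0.48 without library 2.

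Other regulators and targets of ATF4 made up the next lists. Of 9 transcription regulators, 1 was 2-fold above control at 1 h (Cebpb, 2.15 times) and 0 at 4 and 8 h. The shares over all genes were 4.95%, 4.54% and 6.46% at 1, 4 and 8 h. In library 2 alone 1 was 2-fold above at 4 h, beside 6.24% of all genes. It was Creb3l1, at 2.25 times on 32 counts against 15, named after its values were seen. The median of the list at 4 h was 0.28, with 0.31 and 0.26 without library 1 or 2. At 8 h it was 0.33, with 8 above and 1 below control, beside 51.3% of all genes above. Cebpb was at 1.59 and 1.52 times control at 4 h, Cebpg, a partner of ATF4, at 1.45 and 1.30 times, and Creb3l2 at 1.22 and 1.42 times. Creb3l2 was at 1.88 times control at 8 h. Mbtps1, the protease that first cleaves ATF6, was at 0.650 and 0.893 times. Of 16 ATF4 targets in amino acid uptake and synthesis none was 2-fold from control, and the median at 4 h was 0.26, with 0.26 and 0.32 without library 1 or 2. The neutral amino acid transporter Slc7a5 was at 1.83 and 1.89 times control at 4 h, its partner chain Slc3a2 at 1.76 and 1.46 times, and the mitochondrial folate enzyme Mthfd2 at 1.72 and 1.96 times. Pck2, mitochondrial PEP carboxykinase, was lower, at 0.504 and 0.656 times. Slc7a5, like Sesn2, was highest in the pair at 4 h, with 1.15 times control at 1 h and 1.06 at 8 h.

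Of 13 genes for cytosolic aminoacyl-tRNA synthetases and tRNA export, 1 was at least 2-fold above control, both at 1 h and at 4 h, and 0 were at 8 h. The shares over all genes were 4.95%, 4.54% and 6.46% at 1, 4 and 8 h. The gene of this list that far above control was Eprs, which charges tRNAs for glutamate and proline. It had 156 CPM in the control, 314 at 1 h, 609.6 in library 1 and 341 in library 2 at 4 h, and 221 at 8 h. Its log2 fold change at 4 h was 1.61 ± 0.37 (SE), with an adjusted p of 0.298 by edgeR and 1.26e-03 by DESeq2. The median of the list was 0.10, with 0.14 without library 1 and 0.060 without library 2. Cars was at 1.60 and 1.30 times control at 4 h, Gars at 1.33 and 1.35 times and Iars at 1.33 and 1.13 times. Of 11 other stress-induced targets 10 passed the filter, with a median of 0.22 at 4 h, which was 0.058 without library 1 and 0.36 without library 2. Without Fgf21 and Tnfrsf10b it was 0.26, with 0.16 and 0.36 without library 1 or 2. Eif4ebp1, a brake on translation initiation, was at 2.61 and 2.37 times control, Vldlr at 1.59 and 1.57 times and Ddit4, an inhibitor of mTORC1 signalling, at 1.07 and 1.36 times. Bcl2l11, which encodes the pro-apoptotic protein BIM, was at 1.95 times control in library 1 and 0.955 times in library 2. Bbc3, a pro-apoptotic gene named after its values were seen, was at least 2-fold below control at 4 h, with 37 counts in the control and 14 and 15 at 4 h. Jdp2, named likewise, was at 2.19 times control at 1 h, and Fgf21 and Tnfrsf10b had 18 and 14 counts at 8 h, against 1 and 7 in the control.

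The endoplasmic reticulum machinery was divided into 3 lists. Of 16 chaperones and folding enzymes 0 were 2-fold from control at any time. At 1 h, when Hspa5 was highest, 12 were above and 4 below control with a median of 0.10, and at 8 h 11 were above and 5 below with a median of 0.17. Over all genes 49.4% were above control at 1 h and 51.3% at 8 h. In both 4 h libraries 4 were above and 9 below control, beside 38.3% of all genes each way, with a median of -0.097, and of -0.092 and -0.077 without library 1 or 2. Pdia4, a disulfide isomerase, went from 78.3 CPM in the control and 73.4 at 1 h to 41.0 and 48.5 in the 4 h pair and 76.7 at 8 h. Creld2 was at 0.637 and 0.616 times control at 4 h, Manf at 0.882 and 0.642 times and Ppib at 0.726 and 0.830 times.

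Of 11 genes of endoplasmic reticulum associated degradation 3 were above and 6 below control in both 4 h libraries, beside 38.3% of all genes each way. The median of the list was -0.16, with -0.034 without library 1 and -0.25 without library 2. Edem3 was at 1.82 and 1.33 times control, Ube2j1 at 1.37 and 1.08 times, Edem2 at 0.597 and 0.703 times and Sel1l at 0.797 and 0.803 times. Derl3, named after its values were seen, was 2-fold below control at 1 h and 4 h, with 24 counts in the control and 8 or 9 in those libraries. Of 15 genes of the translocon, signal peptidase and vesicle traffic none was 2-fold from control. In both 4 h libraries 9 were above and 2 below control, beside 38.3% of all genes each way. Their median was 0.29, with 0.20 without library 1 and 0.17 without library 2. Sec61a1, the pore of the translocon, was at 1.59 and 1.46 times control, and Sec63, which works with it, at 1.59 and 1.47 times. Sec24d was at 1.5 and 1.28 times and Spcs3 at 1.54 and 1.15 times.

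**Figure D5:**
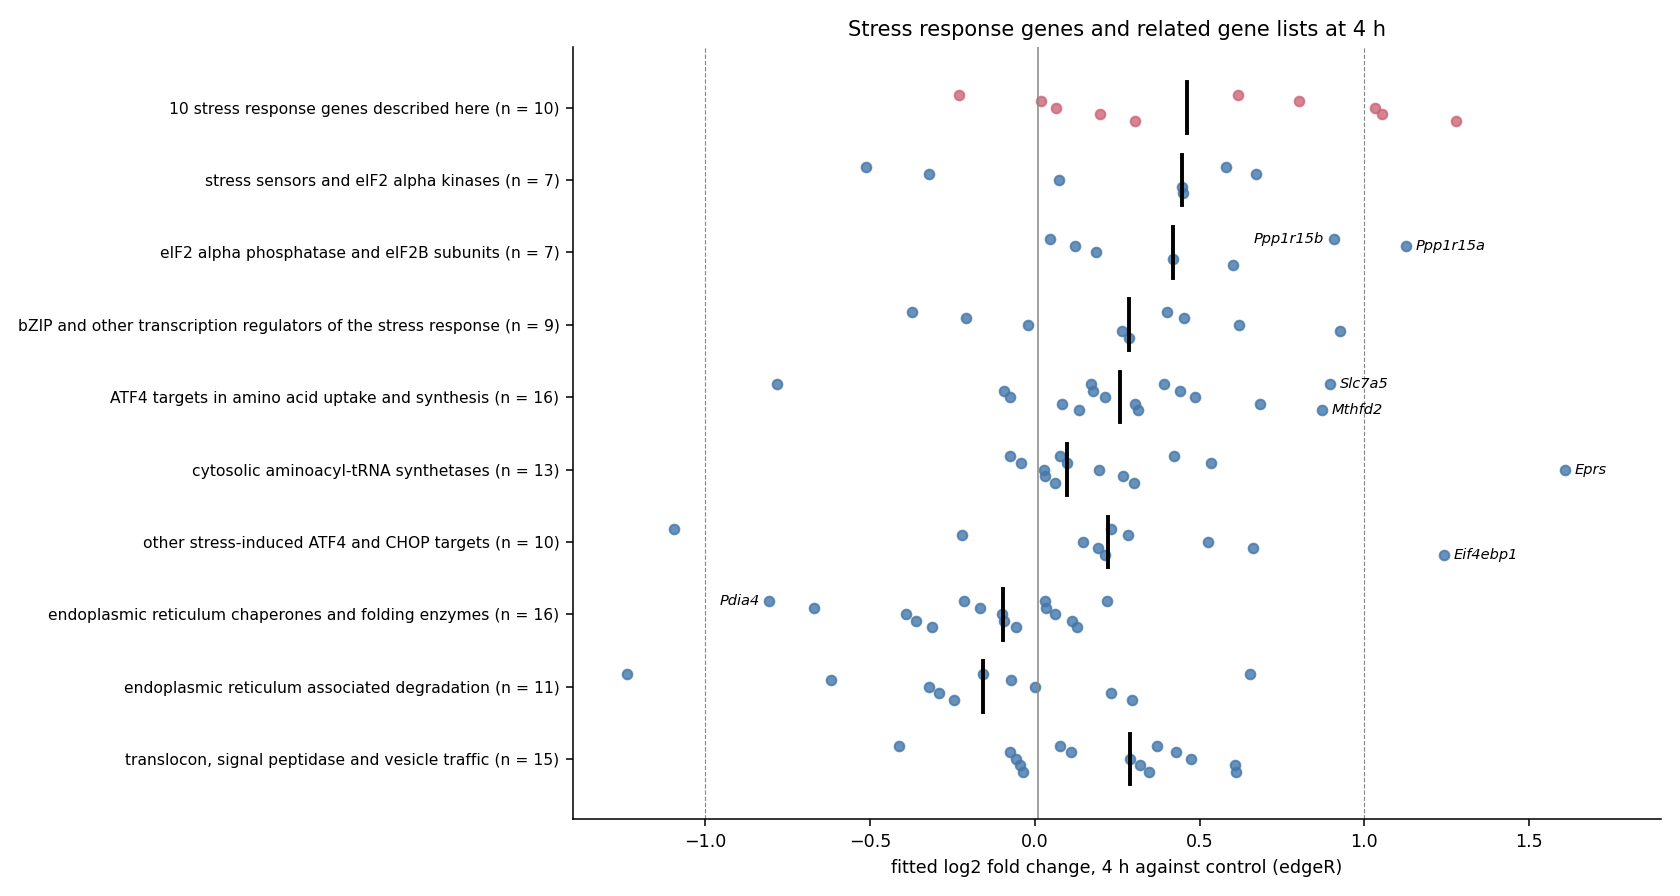
Fitted log2 fold change at 4 h against control for the 10 genes (red) and the 104 genes of the 9 related lists (blue); black bars mark medians, dashed lines 2-fold, the grey line the median of all genes tested, and vertical offsets only separate points. List medians ran from -0.16 for degradation genes to 0.45 for the sensors and kinases, and without library 1 from -0.092 for chaperones and folding enzymes to 0.31 for the transcription regulators; Eprs lay furthest right at 1.61.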

How the data were processed

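RNA was sequenced from 5 hippocampal libraries (total RNA, stranded kit). The authors deposited raw counts per gene, 1 file per library. The submitters' processing notes name STAR 2.5.1b, HTSeq and the build GRCm38.p4; annotation release and strand setting were not named. Lines that name no gene were left out: reads without a feature made up 24.7% to 33.1%, ambiguous reads 1.26% to 1.52% and reads aligned more than once 9.67% to 11.6% of each file's total.

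Counts were scaled by the trimmed mean of M-values. edgeR 4.0.16 (R 4.3.3) fitted a quasi-likelihood model with 4 groups and 1 residual degree of freedom to 19768 genes that passed filterByExpr. Fold changes carried a prior count of 2, and p-values were adjusted by the Benjamini-Hochberg method. Each SE was the coefficient of the test, fitted without that prior count, divided by the square root of its F value. Alternatives were RLE factors, library size alone, DESeq2 1.42.0, limma-voom (limma 3.58.1), no filter, a prior count of 0.125 and leaving out either 4 h library. The script was tested on simulated counts. Ratios to control carry exact 95% intervals from the 2 counts (scipy 1.17.1), and a floor of 3 counts was applied to genes outside the set. The floor equals 0.151 to 0.178 CPM.

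The 10 members were named in full. From each list, up to 4 genes with at least 50 counts in 1 library were named by the largest absolute log2 fold change at 4 h, plus Ern1, Eif2ak3, Atf6 and Ppp1r15a. Members and lists were chosen with earlier results of these data known. Exon lengths came from GENCODE M21, in which 55144 of 55385 identifiers were found (54487 with the same version). BLAST 2.17.0 of member transcripts against 141767 transcripts found, at 95% identity over at least 100 bases, 1 other entry, the second Ddit3 entry. The files held 0 further columns of values per sample.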

Additional observations from a re-analysis of the deposited data

Results flagged for a closer look

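Herpud1 lay on opposite sides of the control at the first and the last time. It was above control at 1 h (1.35 times, interval 1.25 to 1.46) and below it at 8 h (0.894 times, interval 0.818 to 0.976), each in 1 library. The fitted log2 difference of 8 h minus 1 h was -0.595, with an edgeR adjusted p of 0.848, so it did not pass the test of the difference itself. The 4 h libraries lay between, at 1.12 and 0.905 times control, with intervals of 1.03 to 1.22 and 0.830 to 0.987.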

How the results depend on the processing

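The settings reuse the counts of the same libraries, so agreement between them is not independent support. Another prior count, RLE factors, DESeq2 and limma-voom each kept the direction of all 30 fold changes. No member passed 0.05 in the main test, so staying on that side says little. Of 200 log2 fold changes recomputed for the 10 members, 194 kept their direction. An adjusted p was given for 147 of them, and 140 of these kept both direction and side of the 0.05 threshold; the other 53 (another prior count, either 4 h library left out, and Trib3 in DESeq2) had no adjusted p. With library size alone, 3 changed sign: Sdf2l1 at 1 h (-0.030), Ddit3 at 4 h (-0.063) and Herpud1 at 4 h (-0.11), with the median of all genes at -0.077 and -0.11. Without library 1 at 4 h, 3 did: Ddit3 (-0.11), Hspa5 (-0.18) and Herpud1 (-0.14), against 0.23, 0.67 and 0.17 without library 2; with 1 library left in each group there was no test. Without the filter on low counts, an alternative chosen for the members after seeing the data, 4 of the fold changes passed the threshold. They were those of Hspa5 at 1 h, Atf4 at 1 h and 4 h, and Chac1 at 4 h. The count of members at least 2-fold above control at 4 h was 1 with library size alone, for which no share of all genes is given. It was 2 or 3 with either library left out. Without Trib3, which met the filter's minimum in kainic acid libraries alone, the counts above were 0, 1 and 0 at 1, 4 and 8 h, and 1 or 2 at 4 h with either library left out as well, added after seeing the data. Medians of the members and lists at 4 h, an alternative chosen after seeing the data, are given in the text with either library left out. Calls over all genes differed between fits. At 1 h the main test, RLE factors and limma-voom called 0, library size alone 57, DESeq2 50 and the fit without a filter 285. At 4 h the main test called 1, RLE factors 0, library size alone 237, DESeq2 234, limma-voom 0 and no filter 1300. At 8 h the main test, RLE factors and limma-voom called 0, library size alone 22, DESeq2 33 and no filter 279. Over the 3 times the main test called 2, and alternatives chosen after seeing the data called 0 (RLE factors), 338 (library size alone) and 1761 (no filter). The cause was not tested. No paired analysis was possible because mice were sacrificed at each time point and the labels give no pairing between libraries. Depth limits Trib3, with 4 to 11 counts a library.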
